A study of Mus musculus with 4 samples.

Results

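The 10 endothelial and angiogenic genes described here were measured in epididymal adipose tissue of male mice. The array was Clariom S Mouse, on which each probe set reads 1 transcript cluster in a single colour. The genes were Vegfa, Angpt1, Kdr, Tek, Pecam1, Cdh5, Emcn, Erg, Gpihbp1 and Vwf. They were chosen by symbol, and all 10 were found, each with 1 probe set, among 19505 genes named on the array. The 4 arrays each represent 1 group. Vehicle sham (Veh-Sham) mice received DMSO and sham surgery. Vehicle overload (Veh-SA) mice received DMSO and synergist ablation, the removal of muscles that work together with another muscle, which overloads the muscle that is left. GW4869 sham (GW-Sham) and GW4869 overload (GW-SA) mice had the same surgeries but received GW4869, a drug used to block the release of extracellular vesicles. The series title concerns vesicles from overloaded muscle and fat breakdown, and the layout allows overload to be set against sham with vesicle release intact or blocked. The sources used here do not give strain, age, dose or timing, or how many mice contributed to an array. With 1 array in each group no difference has a replicate error, no test was made, and every value describes these 4 arrays.

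Fat is laced with capillaries that bring oxygen, hormones and lipids to the adipocytes. Vascular endothelial growth factor A, made by adipocytes and other cells, acts on endothelial receptors to start and maintain vessels, and angiopoietin 1, made largely by cells around the vessel, keeps the endothelium quiescent through the receptor Tie2. Junction and surface proteins such as CD31, VE-cadherin and endomucin, and the transcription factor Erg, mark endothelial cells in nearly every tissue, whereas Gpihbp1 belongs to capillaries that take up fat.

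The values are log2 expression as deposited, and a difference of 1 log2 unit is a doubling on that scale only. All 10 genes stood above the 95th percentile of the antigenomic background probes (6.34 to 6.40) on all 4 arrays. Negative control probe sets are noisier, with a 95th percentile of 9.01 to 9.27. Vwf lay below that mark on 4 arrays, Tek on 3 and Erg and Angpt1 on 2, so these genes are read nearer to background than the others. In a bulk sample, fewer endothelial cells and less RNA per cell cannot be told apart. Of 22 other pan-endothelial genes measured, 17 to 19 were above the antigenomic mark on each array.

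The arrays also differ in RNA of the male reproductive tract. Sperm and testis markers above the antigenomic mark numbered 12 of 12 after sham surgery and 0 after overload under vehicle, and 0 and 3 under GW4869, and the log2 of their summed level was 19.52, 7.72, 7.07 and 9.20. For 11 epididymal markers the counts were 2, 0, 1 and 11 and the summed levels 15.45, 7.22, 8.05 and 20.14, in the same order. For 8 distal tract markers they were 8, 0, 7 and 2, with 18.00, 6.95, 16.12 and 12.42. Each comparison below uses vehicle sham or GW4869 overload or both, so none can be repeated without the arrays richest in tract RNA, whose part in the results was not tested. Across 11703 genes above a floor at log2 4.67, vehicle overload and GW4869 sham were the most alike pair, at r = 0.97, and vehicle sham correlated with the others at 0.83 to 0.85, as a description over genes that are not independent.

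Overload under vehicle came with higher readings of all 10 genes. Angpt1 stood 1.79 log2 units above vehicle sham, Vwf 1.57, Emcn 1.15 and Vegfa 1.12, while Kdr, at 0.18, and Cdh5, at 0.41, were the least apart. Under GW4869 the picture was the other way for 9 of the 10, led by Angpt1 (-2.49), Vwf (-1.37) and Erg (-1.22), and Vegfa alone among the 10 was higher in overload (0.89). The vehicle overload array held the highest reading of 9 genes and the GW4869 overload array the lowest of 6. Counts of direction and of the highest or lowest array were not made over all genes. The median of all genes was itself above 0 in overload under vehicle, at 0.26, so an upward lean there was not particular to the 10 genes. Under GW4869 that median was -0.04. How far the other counts are particular to the 10 genes was not tested.

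At least 1.5-fold higher in overload under vehicle were 8 of the 10 genes, against 30.2% of the 11703 genes, and 0 were that far lower, against 16.9%. The median difference was 0.91, and that of all genes 0.26. With arrays centred on the median level of adipocyte or pan-endothelial genes the count fell from 8 to 2, Vwf and Angpt1. The median fell to 0.21 or 0.29. The median adipocyte level is the reading of 1 gene on each array, Pck1 on the vehicle arrays and Cidec on the GW4869 arrays. Centring by the median of the adipocyte genes' own differences, a choice made after seeing the data, left 4 genes, with a median of 0.56. After removal of an intensity trend 4 genes were left, with a median of 0.57. Under GW4869, 5 of 10 were at least 1.5-fold lower, against 15.3% of all genes, and 1 was higher, against 13.4%. The median was -0.61 and that of all genes -0.04. Centring on the median level of adipocyte genes left 3 lower, with a median of -0.36. Centring by the median adipocyte difference also left 3 lower, with a median of -0.24. These comparisons share no array. The genes were proposed with results of these arrays known, so the counts describe them and carry no weight as evidence about the group.

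**Figure D1:**
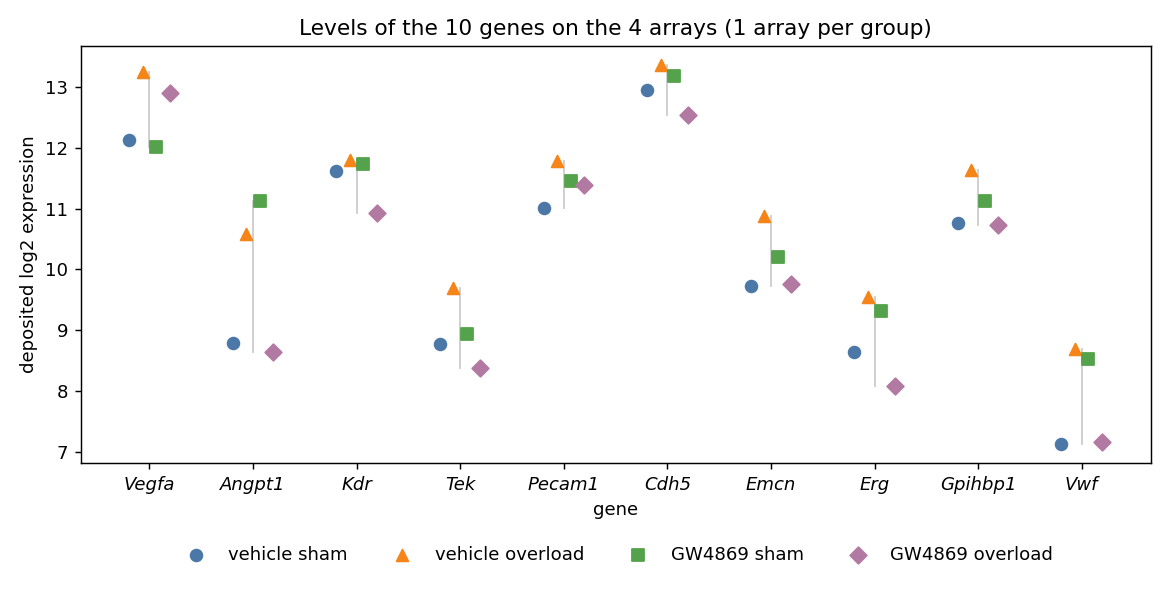
Deposited log2 expression (vertical axis) of the 10 genes (horizontal axis) on the 4 arrays, 1 point per array and no error bars because each group has 1 array; the grey line joins lowest and highest. The vehicle overload triangle is the highest point for 9 genes, a count that was not made over all genes. Angpt1 has the widest range of the 10, 2.49.

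Among the ligands, Vegfa, the main growth factor of vessels, read 12.13 after sham surgery and 13.25 after overload under vehicle, and 12.01 and 12.90 under GW4869. Both overload arrays were therefore above both sham arrays. The overload differences of 1.12 and 0.89 are 2.18-fold and 1.85-fold, and they were positive under every scaling tried, from 0.42 to 1.16 under vehicle and from 0.86 to 1.26 under GW4869. The difference between them was small, at -0.23. Vegfa was thus the only one of the 10 genes whose order on the arrays followed the surgery in both injection groups.

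Angpt1, the agonist of Tie2, read 8.79, 10.57, 11.13 and 8.63 on the same arrays in the same order. Its high readings were vehicle overload and GW4869 sham, and its low readings were vehicle sham and GW4869 overload, with 1.79 log2 units between the nearest of the high and low arrays. Overload against sham was 3.45-fold higher under vehicle and 5.63-fold lower under GW4869, and the overload difference under GW4869 minus that under vehicle was -4.28. Across the scalings tried, Angpt1 was 1.09 to 1.82 higher in overload under vehicle and had -2.13 to -2.53 under GW4869. The low arrays are also those with the most sperm RNA and the most epididymal RNA. The part of that RNA in this pattern was not tested.

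Other members of these ligand families did not share 1 pattern. Vegfb, a relative of Vegfa abundant in fat, was 1.49 higher in overload under vehicle and had -0.88 under GW4869, from readings of 10.81, 12.30, 11.21 and 10.33. Vegfd, a ligand of the lymphatic receptor, was 0.88 and 0.15 higher, and Vegfc, which acts on the same receptor, had 0.16 and -0.47. Pgf, placental growth factor, stayed within background at 4.68 to 5.32. Angpt2, the context-dependent antagonist of Tie2, was read at 4.57 to 5.83, and Angpt4 at 3.96 to 4.73, both below the antigenomic mark on every array. Svep1, a matrix protein that binds the receptor Tie1, was higher in overload under vehicle (2.09) and under GW4869 (1.32), from 9.60, 11.69, 10.88 and 12.20.

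The receptors differed from each other. Kdr, which encodes VEGF receptor 2 and carries most of the growth signal of Vegfa, read 11.62 after sham surgery and 11.80 after overload under vehicle, and 11.74 and 10.92 under GW4869. The sham arrays and vehicle overload lie within 0.18 of each other, and GW4869 overload stands 0.69 below the lowest of them. Its vehicle difference of 0.18 turned negative, to between -0.10 and -0.52, after trend removal and when arrays were centred on adipocyte or pan-endothelial genes, while its GW4869 difference of -0.81 stayed negative under every scaling tried.

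Tek, the gene for Tie2, read 8.77, 9.69, 8.94 and 8.37, so that vehicle overload was above the other 3 arrays by at least 0.75. It was 0.92 higher in overload under vehicle and had -0.57 under GW4869, the latter just inside the 1.5-fold threshold. The ligand Angpt1 and its receptor therefore did not follow the same order, since GW4869 sham was the highest array for Angpt1 and second for Tek. Flt1, VEGF receptor 1, a high-affinity receptor that also traps ligand, had 1.03 under vehicle and 0.34 under GW4869. Tie1, the partner receptor of Tie2, had -0.02 and -0.46. Ptprb, the phosphatase VE-PTP that restrains Tie2, had 0.90 and -0.26, with readings of 10.21, 11.11, 10.33 and 10.07. Flt4, the lymphatic VEGF receptor 3, stayed under the antigenomic mark on all 4 arrays at 4.45 to 6.24, and the co-receptor Nrp2 had 0.36 and 0.12.

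Counted without the 10 genes, 4 of 7 VEGF ligands and receptors were at least 1.5-fold higher in overload under vehicle and 0 lower, and under GW4869 1 was higher, Pgf with its background readings, and 2 were lower, Vegfb and Flt4. Of 4 angiopoietin and Tie genes above the floor, 2 were higher and 0 lower under vehicle. Under GW4869 1 was higher, Svep1, and 1 lower, Angpt2 with its background readings. The shares of all genes to read beside these and the list counts that follow are those given above, 30.2% higher and 16.9% lower under vehicle, and 13.4% higher and 15.3% lower under GW4869.

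The starts of the receptor genes Kdr and Tek, of Emcn and of Vegfa are shown because they cover a growth factor, its receptor, the angiopoietin receptor and a surface marker, with overload differences from 0.18 to 1.15 under vehicle and from -0.81 to 0.89 under GW4869. RefSeq's promoter table (GRCm38.p6) held 5 of the 10 genes, Erg being the fifth. The sequences are the 250 bases before the start, 5′ to 3′, at chr5:75978456-75978705 (minus strand) for Kdr, chr4:94739039-94739288 (plus) for Tek, chr3:137340828-137341077 (plus) for Emcn and chr17:46032378-46032627 (minus) for the upstream start of Vegfa. Capitals mark exact matches, on either strand, to ETS letters (AGGAAG or CGGAAG), the site type bound by Erg, to GATA letters (AGATAA or TGATAA) or to the core of the hypoxia response element (ACGTG or GCGTG). No match overlaps another here.
Kdr: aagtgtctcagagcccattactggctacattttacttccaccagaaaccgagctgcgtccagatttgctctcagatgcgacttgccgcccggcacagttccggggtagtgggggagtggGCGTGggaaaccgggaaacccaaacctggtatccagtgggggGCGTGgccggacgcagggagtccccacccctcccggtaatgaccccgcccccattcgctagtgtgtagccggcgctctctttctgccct
Tek: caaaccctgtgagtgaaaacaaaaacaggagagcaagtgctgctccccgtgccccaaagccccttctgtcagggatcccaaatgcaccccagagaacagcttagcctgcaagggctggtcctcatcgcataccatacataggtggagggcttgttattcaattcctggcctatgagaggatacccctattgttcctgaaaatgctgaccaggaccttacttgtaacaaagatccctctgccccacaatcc
Emcn: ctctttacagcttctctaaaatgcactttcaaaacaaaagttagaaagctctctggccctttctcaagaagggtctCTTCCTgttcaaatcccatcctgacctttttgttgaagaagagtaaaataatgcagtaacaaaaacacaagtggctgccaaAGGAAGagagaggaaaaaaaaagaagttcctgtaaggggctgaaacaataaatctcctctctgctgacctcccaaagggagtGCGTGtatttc
Vegfa: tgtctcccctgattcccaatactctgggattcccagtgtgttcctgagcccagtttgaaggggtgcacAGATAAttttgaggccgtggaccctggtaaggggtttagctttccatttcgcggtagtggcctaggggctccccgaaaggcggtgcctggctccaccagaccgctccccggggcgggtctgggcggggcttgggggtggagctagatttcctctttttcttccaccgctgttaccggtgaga
Emcn has 2 ETS matches and 1 hypoxia match, Kdr 2 hypoxia matches, Vegfa 1 GATA match, and Tek 0 of the 3 kinds. Of 32851 promoter windows of the same length, 39.2% hold an ETS match, 16.6% a GATA match and 38.6% a hypoxia match, so such matches are common and are given as a description. A window before a second, downstream start of Vegfa holds 2 hypoxia matches, and of 3 windows for Erg 1 holds an ETS, a GATA and a hypoxia match.

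Pecam1, the junction and adhesion molecule CD31, read 11.003 after sham surgery and 11.78 after overload under vehicle, and 11.45 and 11.39 under GW4869. Vehicle sham was low and vehicle overload high, and the GW4869 arrays lay 0.06 apart. The vehicle difference was 0.78 and positive under all scalings tried, whereas the GW4869 difference of -0.06 was 0.00 after trend removal and 0.12 to 0.31 when arrays were centred on adipocyte or pan-endothelial genes. Macrophages and other leukocytes also carry CD31. Of macrophage markers measured, 11 of 11 were at least 1.5-fold higher in GW4869 sham than in vehicle sham, against 28.9% of all genes. Their summed levels were 15.20, 15.79, 17.03 and 16.94 in the order of the arrays above. The part of these cells in the Pecam1 reading was not tested.

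Cdh5, VE-cadherin, which holds endothelial cells together, read 12.96, 13.36, 13.19 and 12.54. It was 0.41 higher in overload under vehicle, or -0.21 and -0.29 when arrays were centred on the median level of pan-endothelial or adipocyte genes, and had -0.65 under GW4869. Emcn, endomucin, a sialoprotein of capillary and venous endothelium that hinders leukocyte adhesion, read 9.72, 10.87, 10.20 and 9.76. Vehicle overload was high, GW4869 sham intermediate, and vehicle sham and GW4869 overload only 0.04 apart. The difference was 1.15 under vehicle and -0.44 under GW4869.

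Of the 11 other junction and adhesion genes above the floor, 4 were at least 1.5-fold higher in overload under vehicle and 0 lower, while under GW4869 3 were higher and 3 lower. The higher 3 were the leukocyte adhesion genes Icam1 (2.18), Selp, which encodes P-selectin (1.41), and Vcam1 (1.40). Icam1 read 5.47, which is under the antigenomic mark, 6.44, 6.83 and 9.01, so it was highest in GW4869 overload, where Cdh5 was lowest. Selp was also 1.20 higher in overload under vehicle, and Vcam1 had -0.03 there. Esam, an endothelial junction protein, had 0.93 and -0.71.

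Erg, an ETS factor that maintains endothelial identity, read 8.64 after sham surgery and 9.55 after overload under vehicle, and 9.31 and 8.08 under GW4869. It was 0.91 higher in overload under vehicle and had -1.22 under GW4869, a difference between the overload differences of -2.13. Both signs were kept under every scaling tried, with 0.21 the smallest value under vehicle and -0.86 the smallest size under GW4869. Of 11 other endothelial transcription factors above the floor, 6 were at least 1.5-fold higher and 1 lower in overload under vehicle, and 0 higher and 3 lower under GW4869. Of the 6, Lmo2 read under the antigenomic mark on both vehicle arrays (5.42 and 6.11). Lyl1 (6.04) and Klf2 (5.96) were under it in vehicle sham. Sox7 had 0.61 and -1.39, Mef2c 0.36 and -0.94, and Gata2, which mast cells also use, -0.94 and -1.55, with both overload readings under the antigenomic mark.

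Gpihbp1, the capillary protein that carries lipoprotein lipase to the vessel lumen, read 10.76, 11.63, 11.13 and 10.73. Vehicle overload was the high array, and vehicle sham and GW4869 overload differed by 0.03. Its difference was 0.88 under vehicle and -0.41 under GW4869, with the same signs under all scalings tried. Lpl, the lipase it carries, had 0.26 and -0.43 and is made chiefly by adipocytes. Of 13 other genes of capillary lipid handling above the floor, 5 were at least 1.5-fold higher and 1 lower in overload under vehicle, and 0 higher and 4 lower under GW4869. The 13 include Lpl, Cd36, Fabp4 and Aqp7, which are also in the adipocyte list, so the list is not of endothelial genes alone. Rbp7, a retinol-binding protein of fat capillaries, had 1.90 and 0.27, Meox2, a transcription factor of fatty acid-transporting endothelium, 1.00 and -0.61, Cav1, the main protein of caveolae, 0.24 and -0.95, and Lmf1, needed for lipase folding, -1.73 and -1.04.

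Vwf, von Willebrand factor, which tethers platelets and is stored in endothelial granules, read 7.12 after sham surgery and 8.69 after overload under vehicle, and 8.53 and 7.15 under GW4869. The arrays form a high pair 0.16 apart and a low pair 0.03 apart, with at least 1.37 between the pairs, and this is the same pairing as for Angpt1. Overload was 2.96-fold higher under vehicle and 2.59-fold lower under GW4869. Megakaryocytes and platelets also make Vwf, and 1 of 5 platelet markers measured, Pf4, was above the antigenomic mark on each array. Pf4, which tissue macrophages can express too, read 9.17, 9.34, 10.12 and 10.33, in another order than Vwf.

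The other genes of the haemostasis list had the same signs more often than not, and the cells that made their RNA were not identified. Of 6 above the floor, 5 were at least 1.5-fold higher in overload under vehicle and 0 lower, and 3 were lower under GW4869 and 0 higher. Procr, the protein C receptor, had 1.77 and -0.30, with a vehicle sham reading of 5.14 under the antigenomic mark, F3, tissue factor, 1.47 and -0.88, and Thbd, thrombomodulin, 0.26 and -1.64.

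**Figure D2:**
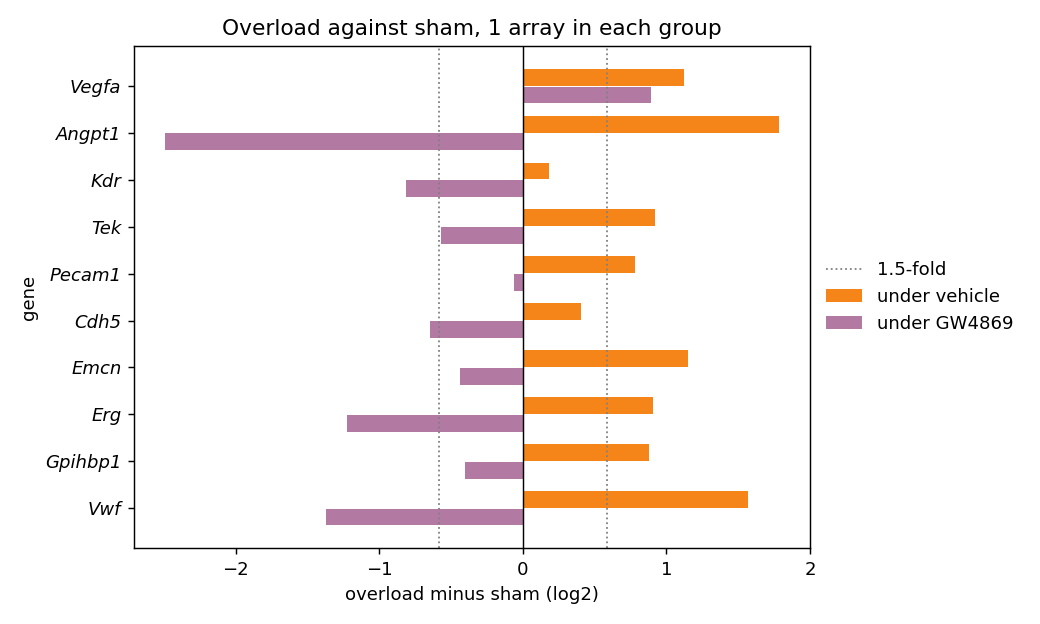
Overload minus sham on the log2 scale (horizontal axis) for the 10 genes (vertical axis), 1 bar for vehicle and 1 for GW4869, with dotted lines at 1.5-fold and no error bars because each bar is the difference of 2 arrays. Vegfa is the gene with both bars to the right, and the bars of Angpt1, Vwf and Erg pass 1.5-fold on opposite sides.

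GW4869 against vehicle was also read within each surgery. In sham mice, GW4869 came with readings at least 1.5-fold higher for 3 of 10 genes, Angpt1 (2.34), Vwf (1.40) and Erg (0.66), against 28.9% of all genes, and 0 were lower, against 14.4%. The median was 0.41, beside 0.27 over all genes, and the other 7 genes lay between -0.12 and 0.47. In overloaded mice, 8 of 10 were at least 1.5-fold lower with GW4869, against 18.8% of all genes, and 0 higher, against 18.4%. The median was -1.01, beside -0.04, with Angpt1 (-1.94), Vwf (-1.54), Erg (-1.47) and Tek (-1.32) the lowest, and Pecam1 (-0.39) and Vegfa (-0.36) inside 1.5-fold. Centring on the median level of adipocyte genes left 4 lower, with a median of -0.43. The sham contrast shares the vehicle sham array with overload under vehicle, and each GW4869 contrast shares an array with each overload contrast, so these values are not independent of those above. The overload difference under GW4869 minus that under vehicle had a median of -1.39, beside -0.27 over all genes, and was past 1.5-fold downward for 9 of 10 genes, against 36.3% of all genes, and upward for 0, against 21.5%. The same centring gave a median of -0.44, with 4 genes past 1.5-fold downward and 1, Vegfa, upward. Centring by the median adipocyte difference gave -0.67, with 5 genes downward and 0 upward.

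Other vascular lists put the 10 genes in context. The 22 other pan-endothelial genes had a median of 0.63 in overload under vehicle, with 12 at least 1.5-fold higher and 0 lower, and -0.38 under GW4869, with 0 higher and 7 lower. Their vehicle median turned to -0.07 with arrays centred on the median level of adipocyte genes, where the GW4869 median was -0.14. With centring by the median adipocyte difference these medians were 0.28 and -0.01. Clec14a, an endothelial lectin, led them with 1.41 and -1.59 from readings under the antigenomic mark, and Nos3, the endothelial nitric oxide synthase, had 1.54 and -0.69 from 6.77, 8.31, 6.96 and 6.28, the last under that mark. Sox7 and Flt1 were the next largest and are given above. Against these 22 genes, the 10 genes kept a median of 0.29 in overload under vehicle and -0.43 under GW4869, and Angpt1 (1.16, -2.31) and Vwf (0.95, -1.19) were furthest from them in both comparisons. Vegfa had 0.50 and 1.07, and Erg 0.29 and -1.04.

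By vessel type, 3 of 8 arterial genes above the floor exceeded 1.5-fold upward and 0 downward in overload under vehicle, near the 30.2% of all genes that were higher, and 1 was higher and 2 lower under GW4869. Hey1, a Notch target, had 0.92 and -0.34, Jag1, a Notch ligand, 1.03 and 0.47, Fbln5, an elastic fibre protein, 0.18 and -0.69, and Efnb2, ephrin-B2, which epithelia also express, -0.22 and 1.47. Of 6 venous genes, 3 were higher and 0 lower under vehicle, and 3 higher and 1 lower under GW4869. Like the VEGF list, venous genes had a median above 0 in both, at 0.56 and 0.67. The former was -0.14 when arrays were centred on the median level of adipocyte genes. The higher genes under GW4869 were Selp, Vcam1 and Lrg1, an inflammation-induced glycoprotein (1.25 and 1.02). Nr2f2 had 0.12 and -0.37, and Ephb4 0.03 and 0.33, so the medians do not hold for each venous gene. Ackr1, the chemokine receptor of venules, read 5.27, 6.28, 6.48 and 5.79, above the antigenomic mark in GW4869 sham alone. Its differences of 1.01 and -0.70 therefore rest on readings within background. Of 5 lymphatic genes above the floor, 3 were higher and 1 lower under vehicle and 0 higher and 4 lower under GW4869. The higher genes under vehicle included Flt4 and Mmrn1, each read under the antigenomic mark on both vehicle arrays. Ccl21a, the lymphatic chemokine, read 10.77, 11.61, 13.11 and 10.97, and Lyve1, which some macrophages carry too, 10.96, 10.93, 12.65 and 11.72. Pdpn, the lower gene under vehicle, went the other way from the rest under GW4869. It read 9.04, 8.23, 10.05 and 10.55, with differences of -0.81 and 0.50. Prox1, the defining factor of lymphatic endothelium, was under the antigenomic mark on all 4 arrays, at 3.95 to 5.20.

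Sprouting, inhibitor and oxygen-sensing genes were less uniform. Of 11 tip cell and sprouting genes, 4 exceeded 1.5-fold upward and 0 downward in overload under vehicle, near the 30.2% of all genes. Under GW4869 1 was higher and 6 lower, with Angpt2 and its background readings among the lower. The exception was Adm, adrenomedullin, with 1.49 and 1.10, while Nid2 and Col4a1, of the basement membrane, had 0.64 and -1.25, and 1.16 and -0.24. Cxcr4, the chemokine receptor of tip cells and leukocytes, read 5.05, 5.11, 6.59 and 5.25, above the antigenomic mark in GW4869 sham alone, so its differences of 0.05 and -1.35 are also taken against background. The tip cell markers Apln and Esm1 were under the floor. Of 8 angiogenesis inhibitors, 2 were higher and 1 lower under vehicle, where 30.2% and 16.9% of all genes were, and 2 higher and 2 lower under GW4869. Cxcl10, an interferon-induced chemokine, reached 7.90 in GW4869 overload from 4.82 in sham, the latter within background, Adamts1 had 0.84 and 1.19, Thbs2 0.85 and -0.33, and Serpinf1 -0.53 and -0.76. Of 13 hypoxia response genes, which include regulators that induce Vegfa, 7 were higher and 1 lower under vehicle, and 3 higher and 2 lower under GW4869. Ndrg1 (0.27, 2.20) and Adm led them, followed by P4ha1 (1.15, -0.51) and Egln1 (1.09, -0.39), and Hif1a, the oxygen-regulated factor itself, had 0.53 and 0.26.

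Of 10 mural cell genes, 6 exceeded 1.5-fold upward and 1 downward in overload under vehicle, and 1 higher and 3 lower under GW4869. Rgs5, a pericyte marker, had 0.70 and -1.06, Vtn, vitronectin, 1.26 and -0.68, and Abcc9, a potassium channel subunit of pericytes, 0.96 and 0.26. The lower gene was Des, desmin, shared with smooth muscle, with -3.78 and -1.99 and a vehicle overload reading of 5.98 under the antigenomic mark. All 8 smooth muscle genes above the floor were lower in both overload comparisons, as was the median of the distal tract markers (-9.77 and -5.55), and their part in each other was not tested. Adipocyte genes had medians of 0.35 and -0.37, fibroblast and progenitor genes 0.48 and -0.79, and macrophage genes 0.57 and -0.13, in the same comparisons.

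**Figure D3:**
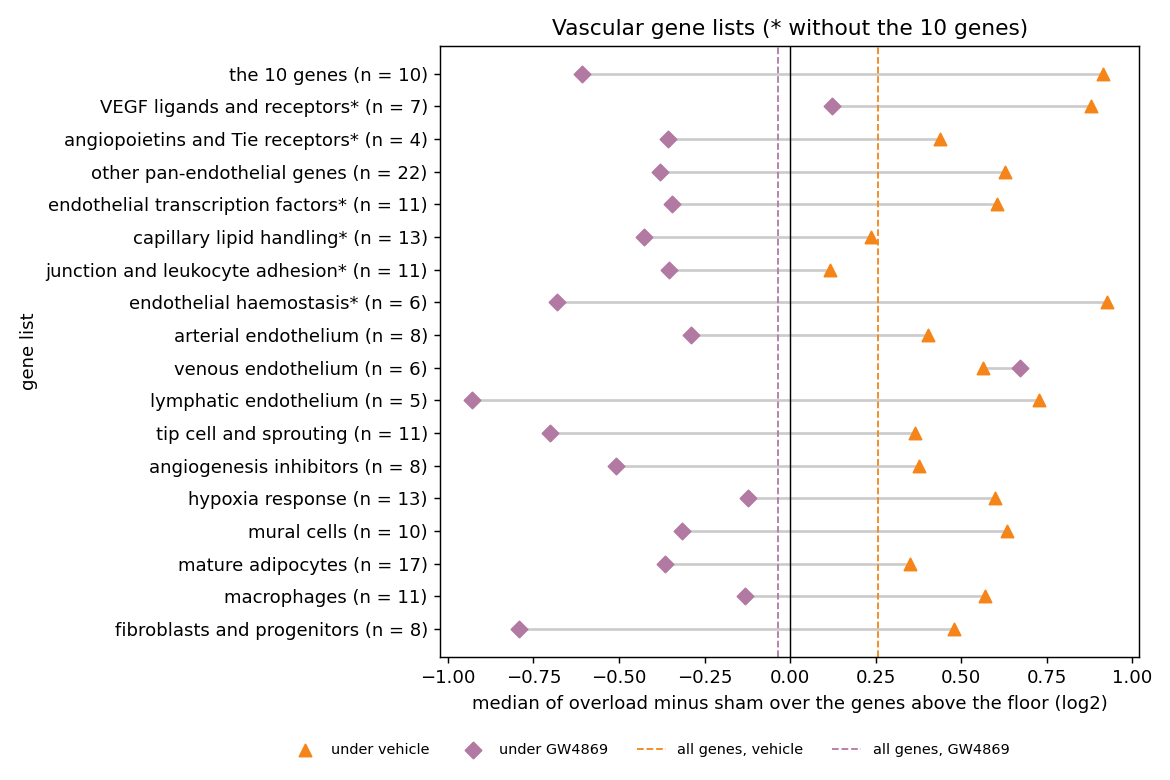
Median of overload minus sham on the log2 scale (horizontal axis) for each gene list (vertical axis, with the number of genes above the floor), a triangle for vehicle and a diamond for GW4869; dashed lines mark the median of all genes, 0.26 and -0.04. As deposited, all vascular lists have their vehicle triangle above 0. With arrays centred on the median level of adipocyte genes only the 10 genes and, counted without the 10 genes, the VEGF, haemostasis and lymphatic lists do. The lymphatic triangle is the difference of Mmrn1, read under the antigenomic mark on both vehicle arrays. The VEGF and venous lists are the vascular lists whose GW4869 diamond also lies above 0. The capillary lipid list shares genes with the adipocyte list.

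How far the differences extend depends on what the arrays are set against. The share of genes higher in overload under vehicle, among genes at least 1.5-fold apart, was 64.2% as deposited, 39.2% after removal of an intensity trend, 11.1% when centred on the median level of adipocyte genes and 14.7% on that of pan-endothelial genes. For overload under GW4869 the shares were 46.7%, 52.5%, 74.1% and 67.9%. Centring by the median adipocyte difference gave 35.5% under vehicle and 83.6% under GW4869. Under vehicle, Vwf and Angpt1 were at least 1.5-fold higher under every scaling tried, and Emcn and Vegfa lost this only when arrays were centred on the median level of adipocyte or pan-endothelial genes. Pecam1, Erg, Tek and Gpihbp1 came inside 1.5-fold under trend removal and under each centring on adipocyte or pan-endothelial genes. Under GW4869, Vwf, Erg and Angpt1 stayed lower and Vegfa higher past 1.5-fold under every scaling tried. Of the other vascular lists, taken without the 10 genes, the VEGF, haemostasis and lymphatic lists kept a positive vehicle median under every scaling tried, with lowest values of 0.18, 0.23 and 0.03. As deposited, the lymphatic median of 0.73 is the difference of Mmrn1, read under the antigenomic mark on both vehicle arrays (5.32 and 6.04). Over all 7 lymphatic genes measured, without the floor, the vehicle median was -0.03. Under GW4869 the other pan-endothelial, capillary lipid, haemostasis, lymphatic, sprouting and inhibitor lists kept a negative median, though that of the pan-endothelial list came to -0.01 when arrays were centred by the median adipocyte difference. The capillary lipid list shares genes with the adipocyte list, and its deposited GW4869 median of -0.43 is the difference of Lpl.

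**Figure D4:**
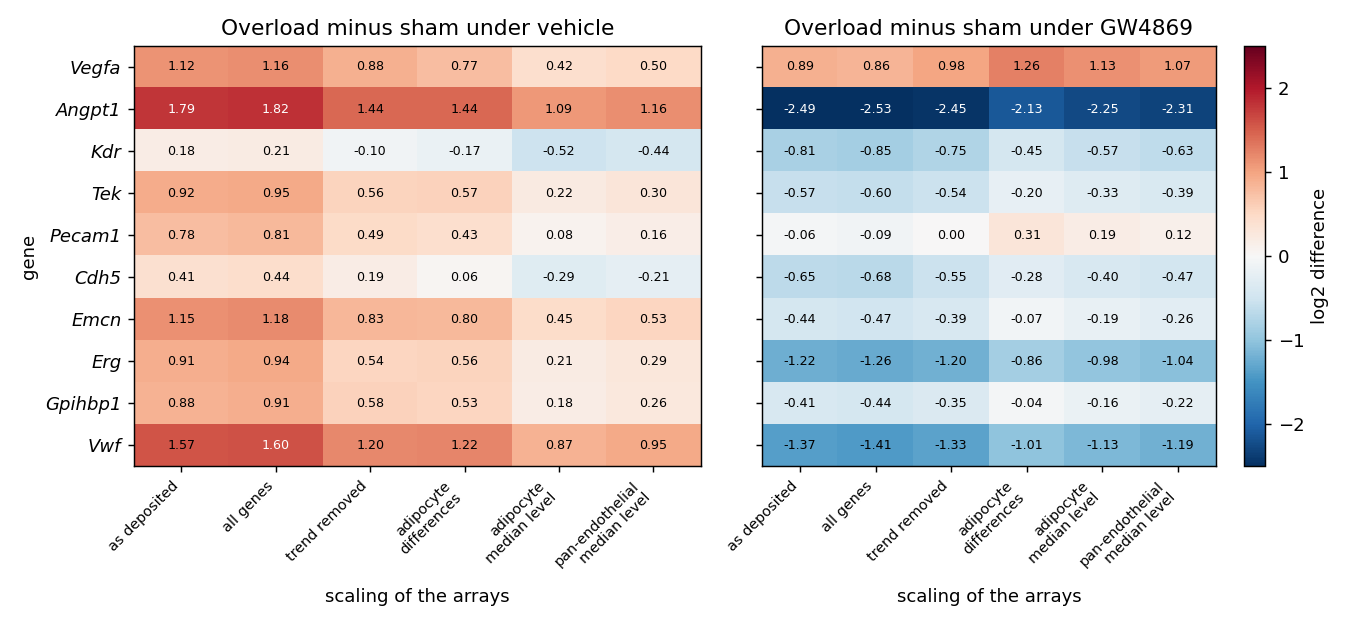
Overload minus sham on the log2 scale (colour and printed value) for the 10 genes (rows) under each scaling of the arrays (columns), for vehicle on the left and GW4869 on the right. Angpt1, Vwf, Erg, Emcn, Tek and Gpihbp1 keep opposite signs in the panels in every column. Vegfa is positive throughout, Kdr and Cdh5 change sign on the left, and Pecam1 changes sign on the right.

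Many genes shared the profile of the 10. After subtracting each gene's mean over the 4 arrays, the genes nearest to the median profile of the 10, by Euclidean distance over the 4 arrays among 11308 other genes, were Chmp3 (0.07), Zfp975 (0.08), Bphl (0.08), Acadm (0.08), Ebf3 (0.09) and Abcg4 (0.10). As many as 970 genes lay within 0.5 of that profile. Angpt1 had the fewest neighbours, with 2 genes within 0.5, Mup19 the nearest at 0.27, and Vwf had 79, Cd209c the nearest at 0.14. For Vegfa 205 genes lay that close, with Gimap8 at 0.10, and for Erg 323, with Insig1 at 0.08. The nearest to the others were Rab40b for Emcn (0.03), Mrpl28 for Pecam1 (0.01), Cplx2 for Cdh5 (0.03), Tanc2 for Kdr (0.04), Dnajc6 for Tek (0.03) and B3galt2 for Gpihbp1 (0.02), with 663 to 3037 genes within 0.5. With 4 arrays such closeness is a description only.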

How the data were processed

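RNA of epididymal fat was hybridised to 4 arrays, 1 for each group in the sample titles. Values are log2 expression as deposited; the submitters' processing notes name Partek and RMA. No source used here gives versions, settings or a genome build, and values reach 19.93, beyond the raw range of an ordinary scanner. Of 28846 rows, 19572 carry 1 gene symbol in the platform annotation and 0 several, and for 55 genes with several probe sets the one with the highest mean was kept. A floor was set at percentile 40 of gene means (log2 4.67). Differences of log2 values were taken between arrays, and genes at least 1.5-fold apart were counted, with Python 3.11.15 and pandas 2.3.3. The counting was tested on simulated data. The number of arrays limits the precision.

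The 10 genes and 23 further lists (229 of 243 genes measured) were chosen with earlier results of these data known. Named are the 10 genes, all measured VEGF and angiopoietin genes, in other lists up to 4 genes with the largest overload differences, and the nearest profiles. Hif1a, Lpl, Cd36, Fabp4, Aqp7, Prox1, Apln, Esm1, Nr2f2, Ephb4, Lmo2, Lyl1 and Klf2 were named after their values were seen. Alternatives were centring on the median level of all, adipocyte or pan-endothelial genes and, chosen after the data were seen, centring by the median adipocyte difference. The others were removal of a lowess trend (statsmodels 0.14.6, span 0.3), background limits, the mean over probe sets and a 2-fold threshold. No coordinates of probe sets are given.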

Additional observations from a re-analysis of the deposited data

Results flagged for a closer look

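For 3 genes the overload contrast passed 1.5-fold in opposite directions in the vehicle and GW4869 arrays, and the difference was not tested because each group has 1 array. Angpt1 differed most, with the overload difference under GW4869 lying -4.28 log2 units from that under vehicle. For Vwf the value was -2.94 and for Erg -2.13.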

How the results depend on the processing

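As reported, the median overload difference of the 10 genes was 0.91 under vehicle and -0.61 under GW4869, and GW4869 against vehicle in overloaded mice had -1.01. The direction of every one of the 5 medians was the same under all 8 alternative settings. Of these, the floor and background limits and the mean over probe sets could not change any value of the 10 genes. Centring on the median level of adipocyte genes gave 0.21, -0.36 and -0.43, centring on pan-endothelial genes 0.29, -0.43 and -0.55, and centring by the median adipocyte difference, a choice made after seeing the data, 0.56, -0.24 and -0.40, all inside 1.5-fold. Trend removal gave 0.57 under vehicle and -0.55 under GW4869. The difference between the overload differences, -1.39 as reported, was -0.44 and -0.58 with adipocyte and pan-endothelial centring. It was -0.67 when centred by the median adipocyte difference. The count of genes at least 1.5-fold higher in overload under vehicle, 8 as reported, was 2 with adipocyte or pan-endothelial centring, 4 with the adipocyte difference, with trend removal and with a 2-fold threshold. The count lower under GW4869, 5 as reported, was 3 with either adipocyte centring and with a 2-fold threshold, where the count higher went from 1 to 0. With GW4869 in overloaded mice, 8 lower as reported became 4 with either adipocyte centring and 5 with pan-endothelial centring or 2-fold. For the difference between the overload differences, 9 lower became 4 with adipocyte centring, where 1 was higher, and 5 with pan-endothelial centring or the adipocyte difference. Pecam1, at -0.84 for that difference, turned to 0.11 with adipocyte centring. Pecam1 is the 1 gene value past 1.5-fold that turned sign. Of 400 values of single genes under the alternatives, 316 kept direction and side of the threshold, 54 kept direction but moved inside 1.5-fold, and 1 kept direction and moved past it, Tek under GW4869 (-0.60 when centred on all genes). Another 28 turned sign without having been past 1.5-fold, and 1 of these, Vegfa for the difference between the overload differences, ended past it (0.71 with adipocyte centring). Setting values under the floor or the background mark to it, or averaging probe sets, left all 50 gene values each unchanged. That outcome was fixed beforehand, because each of the 10 genes has 1 probe set and read above both marks on every array. These unchanged values are among the 316. By construction each centring adds 1 amount to every gene of a comparison, and trend removal an amount that varies with the gene's level; the cause was otherwise not tested. No paired analysis was possible because each group has 1 array.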
